A study of Homo sapiens with 8 samples.

Results

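WNT signalling genes were examined in HaCaT keratinocytes: 3 secreted antagonists (DKK1, DKK3 and SFRP1), 5 ligands (WNT4, WNT5A, WNT7A, WNT7B and WNT10A) and AXIN2, a target that the pathway switches on. These 9 genes, out of 17131 in the table, were chosen by name with their values in these libraries already known, so their differences between groups are given as descriptions, with no test. HaCaT is an established, spontaneously immortalised line of human keratinocytes, the main cell of the epidermis. All 8 libraries came from cells given M5 for 24 h. M5 is made of oncostatin M, TNF-α, IL-1α, IL-22 and IL-17A (5 cytokines, each at 10 ng/mL). It brings keratinocytes into a psoriasis-like state. The study compared such cells with and without OTS514, an inhibitor of the kinase TOPK (gene PBK), used at 10 nM from 12 h before M5. There were 4 libraries titled M5_O5 and 4 titled M5. By their titles, the M5_O5 libraries would be those given OTS514, but their treatment field states no treatment and that of the M5 libraries states the TOPK inhibitor. Groups are therefore named by title, and which of them received OTS514 cannot be told apart here. Every value comes from 1 wild-type cell line, the labels do not say whether libraries of a group came from separate cultures, and no unstimulated culture was analysed here.

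WNT proteins are lipid-modified signals that bind Frizzled receptors on neighbouring cells. With an LRP co-receptor they stop the destruction complex from degrading β-catenin, which then acts with TCF/LEF factors on genes such as AXIN2. Other WNT proteins, with WNT5A as the best known, mainly signal without β-catenin. Antagonists of the DKK family bind the LRP co-receptors, whereas SFRP proteins bind WNT ligands themselves. DKK3 is a divergent DKK member whose action on LRP receptors is uncertain. In skin, WNT signals are known for their part in hair follicle formation and in the upkeep of the basal epidermis.

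Total counts ranged from 13708055 to 16922693 per library, and the lowest belonged to M5 replicate 1. Levels within a gene are given as CPM, read counts scaled to a common library size by the trimmed mean of M-values (TMM). All 12 keratinocyte markers had a mean of at least 1 CPM, and 7 of them were lower in M5_O5, where 17.6% of all genes tested were. The 12 summed to 20934 to 23578 CPM there and to 25023 to 29737 CPM in M5. Of markers of other cells, 2 of 10 for fibroblasts, 1 of 8 for melanocytes, 1 of 8 for endothelium and 2 of 10 for immune cells reached 1 CPM, and PTPRC and CSF3R, defining markers of immune cells, had no count in any library. Summed levels differed between the groups for several lists. The endothelial list, led by CDH5, summed to 3.16 to 3.85 CPM in M5_O5 and 0.37 to 1.18 in M5, and the fibroblast list, led by COL1A1 and PDGFRA, to 33.2 to 36.7 and 43.1 to 58.5. The melanocyte sums were 1.90 to 2.62 and 1.51 to 1.97 and the immune sums, led by CD68 and CD14, 79.9 to 98.7 and 94.97 to 126.6, and both overlapped. Of 12 markers of keratinocyte differentiation, 10 were tested, of which 1 was higher and 5 lower in M5_O5, against 19.5% and 17.6% of all genes. The 12 summed to 628 to 827 CPM there and to 920 to 1141 CPM in M5. The part of these markers in the results was not tested. M5 replicate 1 stood apart from the other M5 libraries. The 16 listed G2/M cell cycle genes summed to 320 to 337 CPM in M5_O5, to 256 in M5 replicate 1 and to 121 to 135 in the other M5 libraries. All 16 were higher in M5_O5, where 19.5% of all genes were (edgeR quasi-likelihood test, adjusted p-value under 0.05, as for the other marker counts). The part of these cell cycle differences in the results was not tested, so values are also given without M5 replicate 1. PBK had 2.98 ± 0.563 CPM in M5_O5 and 1.22 ± 0.953 in M5 (SD, n = 4), a log2 fold change of 1.32 ± 0.34 (SE, adjusted p = 0.00738, edgeR quasi-likelihood test). The groups overlapped, with M5 replicate 1 at 2.63 CPM and M5_O5 replicate 3 at 2.25 CPM. The other M5 libraries had 0.588 to 0.987 CPM, from 9 to 15 reads, so PBK passed the filter on low counts through the M5_O5 libraries. PBK codes for the kinase that OTS514 inhibits, so its RNA level does not check the labels.

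Sequence is shown for 2 features of these genes: the letters that the related ligands share, since reads from them could be assigned to more than 1 gene, and the promoters of 2 members that lay higher in M5_O5 and 1 that lay lower. In the longest open reading frames of the GENCODE 29 transcripts, the longest identical run between any members was 34 bases, shared by WNT4 and WNT7B near the 3′ end of their coding sequences, and WNT7A and WNT7B shared 30 bases. The runs were:
WNT4 and WNT7B: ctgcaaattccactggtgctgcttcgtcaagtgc
WNT7A and WNT7B: gagaagtcgcccaactactgcgaggaggac
All other pairs of members shared at most 20 identical bases in a row. A read longer than these runs holds at least 1 base that differs between the genes, and how reads within them were assigned is not stated.

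RefSeq promoters (GRCh38.p14, 250 bases before the start of transcription, written 5′ to 3′ on the strand of the gene) were found for 5 of the 9 members. They are printed for DKK1, whose level was higher in M5_O5, for WNT10A, whose difference was smaller, and for WNT7A, which was lower. Capitals mark the words searched for.
DKK1, chr10:52314031-52314280, + strand: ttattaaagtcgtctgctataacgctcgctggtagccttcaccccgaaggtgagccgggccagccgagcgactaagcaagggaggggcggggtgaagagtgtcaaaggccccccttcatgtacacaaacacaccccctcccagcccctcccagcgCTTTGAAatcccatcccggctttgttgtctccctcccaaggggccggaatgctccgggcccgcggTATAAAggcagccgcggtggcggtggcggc
WNT10A, chr2:218880602-218880851, + strand: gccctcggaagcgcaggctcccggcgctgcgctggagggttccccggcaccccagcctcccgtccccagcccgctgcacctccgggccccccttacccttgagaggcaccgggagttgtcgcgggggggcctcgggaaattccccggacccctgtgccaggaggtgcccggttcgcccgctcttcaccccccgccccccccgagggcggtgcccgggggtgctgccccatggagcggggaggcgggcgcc
WNT7A, chr3:13880072-13880321, - strand: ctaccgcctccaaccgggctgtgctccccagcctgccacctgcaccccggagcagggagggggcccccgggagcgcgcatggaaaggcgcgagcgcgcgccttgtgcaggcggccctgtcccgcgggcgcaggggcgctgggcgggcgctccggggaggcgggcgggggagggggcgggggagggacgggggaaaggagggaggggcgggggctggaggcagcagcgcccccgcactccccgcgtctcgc
The DKK1 window holds the word CTTTGAA, which TCF/LEF factors can bind, starting 95 bases before the start, and TATAAA starting 30 bases before it. CTTTGAA or CTTTGAT on either strand occurred in 5.9% of 35116 RefSeq promoter windows of this length, and TATAAA on the strand of the gene in 6.8%. The AP-1 words TGAGTCA and TGACTCA, which differ only at the middle base and are each other's reverse complement, occurred in 4.2% of windows. None of these words lay in the other 5 windows of members, 2 of which belong to WNT5A and 1 to WNT4. The WNT10A and WNT7A windows were 77.6% and 80.4% G and C, against 62.8% for DKK1 and a median of 58.0% for all windows. These are matches of letters, and binding was not measured.

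The antagonists were higher in the libraries titled M5_O5. DKK3 had 24.6, 22.3, 23.7 and 20.6 CPM in M5_O5 replicates 1 to 4 and 5.33, 2.94, 2.70 and 3.24 CPM in M5 replicates 1 to 4. Every M5_O5 library lay far above every M5 library, and M5 replicate 1 was the highest of its group. The means were 22.8 ± 1.75 and 3.55 ± 1.21 CPM (SD, n = 4), a log2 fold change of 2.70 with a 95% interval from 2.37 to 3.02, or 6.48-fold. In RNA from whole cultures, fewer cells with a transcript and less of it per cell cannot be told apart. Without M5 replicate 1 the log2 fold change was 2.94.

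DKK1, the antagonist that binds LRP5 and LRP6 and removes them from signalling, was found at a lower level. Its CPM values were 3.49, 2.76, 2.96 and 2.44 in M5_O5 and 1.17, 1.04, 0.197 and 0.187 in M5. The groups did not overlap, and M5 fell into a pair of libraries near 1 CPM and a pair near 0.2 CPM. Behind these values stood 60, 48, 50 and 41 reads in M5_O5 and 16, 16, 3 and 3 reads in M5, so the low libraries were read from few molecules, and DKK1 passed the filter on low counts through the group in which it was high. The log2 fold change was 2.19, with a 95% interval from 1.41 to 2.97, and 2.60 without M5 replicate 1.

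SFRP1, which binds WNT ligands outside the cell, showed the smallest difference of the antagonists. It had 7.85, 6.15, 6.10 and 7.37 CPM in M5_O5 and 5.33, 3.40, 3.95 and 3.86 CPM in M5. The lowest M5_O5 library lay above M5 replicate 1, the highest of the M5 libraries. The log2 fold change was 0.74 (95% interval 0.42 to 1.06), and 0.875 without M5 replicate 1.

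**Figure D1:**
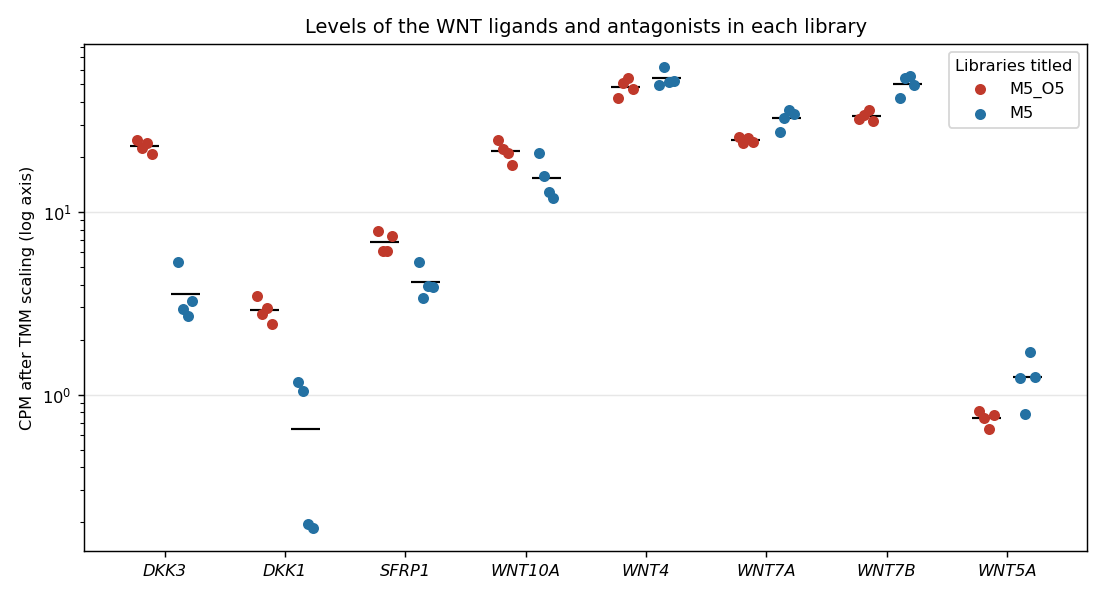
Level of each gene in each library, in CPM after TMM scaling, on a log axis. Points are libraries, red for M5_O5 and blue for M5, and black lines are group means (n = 4). DKK3, DKK1 and SFRP1 lie wholly above M5 in the M5_O5 libraries and WNT7A and WNT7B wholly below. AXIN2 is left out because it had at most 1 read in any library.

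The ligands differed less and in both directions. WNT7B, a ligand for β-catenin signalling in epithelia, had 32.2, 33.9, 35.9 and 31.6 CPM in M5_O5 and 41.9, 53.8, 55.7 and 49.5 CPM in M5. All M5_O5 libraries were below all M5 libraries, and M5 replicate 1 was the M5 library nearest to them. Its log2 fold change was -0.59 (95% interval -0.77 to -0.41), a level in M5_O5 of 0.664 times that in M5.

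The related ligand WNT7A had 25.6, 23.9, 25.4 and 24.2 CPM in M5_O5 and 27.3, 32.5, 36.0 and 34.3 CPM in M5. Here too the groups stayed apart, with a gap of 25.6 to 27.3 CPM at its narrowest, again next to M5 replicate 1. The log2 fold change was -0.39 (95% interval -0.57 to -0.22). Without M5 replicate 1 it was -0.47 for WNT7A and -0.67 for WNT7B.

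WNT10A, a ligand with known roles in skin appendages and teeth, lay in the other direction. It had 24.8, 21.9, 20.9 and 17.9 CPM in M5_O5 and 21.1, 15.7, 12.8 and 11.9 CPM in M5. The groups overlapped only through M5 replicate 1, whose value was above that of 2 M5_O5 libraries. The log2 fold change was 0.49 (95% interval 0.17 to 0.81), and 0.67 without M5 replicate 1.

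WNT4, a ligand used in many epithelia, had 42.1, 50.4, 54.0 and 46.9 CPM in M5_O5 and 49.5, 62.0, 51.4 and 51.8 CPM in M5. The groups overlapped, and the log2 fold change of -0.15 had a 95% interval from -0.33 to 0.03. In TPM, a unit that divides by transcript length and scales each library to a common sum, its means were 22.4 ± 1.34 and 22.4 ± 1.28 (SD, n = 4).

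WNT5A was the least abundant of the 5 ligands, with 0.814, 0.747, 0.652 and 0.773 CPM in M5_O5 and 1.24, 0.784, 1.71 and 1.25 CPM in M5. These values rest on 11 to 26 reads per library, and the groups overlapped in M5 replicate 2. The log2 fold change was -0.73 (95% interval -1.3 to -0.16). On the log2(TPM + 1) scale, which flattens low levels, it was -0.12.

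AXIN2, the feedback target, was at the limit of detection. No read was assigned to it in the M5_O5 libraries, and 1 read each in M5 replicates 1 and 2 gave 0.073 and 0.0653 CPM. A count of 0 allows up to 3 reads, or 0.177 to 0.186 CPM in the M5_O5 libraries, by counting error alone, so no difference was detectable at this depth. Its row rests on 1 transcript of the 12 that RefSeq lists, and the other transcripts were not analysed here.

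**Figure D2:**
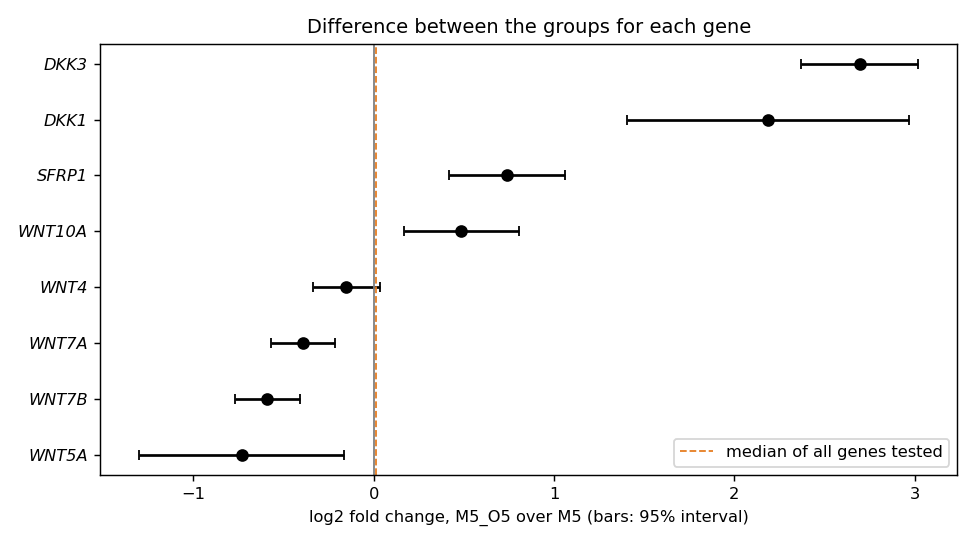
Log2 fold change of M5_O5 over M5 for the 8 genes that passed the filter on low counts, with bars for the 95% interval, and the median of all 12434 genes tested as a dashed line. The interval of WNT4 includes 0, and that of DKK3, from 2.37 to 3.02, lies farthest from it.

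Of the 9 genes, 8 passed the filter on low counts. At an adjusted p-value under 0.05 (edgeR quasi-likelihood test), 19.5% of all 12434 genes tested were higher in M5_O5 and 17.6% lower. With a difference of at least 2-fold added, 2.87% of all genes were higher and 0.330% lower. No member is called by this threshold. Among the 8 members, the groups did not overlap with M5_O5 above in 3 (DKK1, DKK3 and SFRP1), against 17.8% of all genes. They did not overlap with M5_O5 below in 2 (WNT7A and WNT7B), against 15.8%. The median log2 fold change was 0.17 over the 8 genes and 0.01 over all genes tested. Because this contrast chose the members, nothing is read from these counts. Scaling by library size alone moved the median of all genes to 0.13, and then 31.0% of genes were higher and 8.1% lower, but no member changed sign under any scaling.

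Levels were compared between genes in TPM, which takes transcript length into account. In M5_O5 the order of mean TPM was WNT4 (22.4 ± 1.34), WNT10A (20.4 ± 3.06), DKK3 (17.1 ± 1.81), WNT7A (16.0 ± 0.936), WNT7B (15.1 ± 0.613), DKK1 (3.21 ± 0.555), SFRP1 (2.72 ± 0.459), WNT5A (0.225 ± 0.0289) and AXIN2 at 0 (SD, n = 4). The first 5 genes each overlapped with their neighbours in this order, as did DKK1 and SFRP1, while DKK1 lay apart from WNT7B and WNT5A apart from SFRP1. In M5 the order was WNT4 (22.4 ± 1.28), WNT7B (20.7 ± 1.5), WNT7A (18.8 ± 1.45), WNT10A (13.6 ± 4.63), DKK3 (2.47 ± 0.997), SFRP1 (1.51 ± 0.416), DKK1 (0.665 ± 0.562), WNT5A (0.333 ± 0.103) and AXIN2 (0.0125 ± 0.015). The 4 leading ligands overlapped with their neighbours, and DKK3 lay apart below them. DKK3 was thus among the leading ligands in M5_O5 and below all 4 in M5.

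The 5 member ligands overlapped between the groups in their summed TPM. They gave 78.4, 72.1, 75.5 and 70.1 TPM in M5_O5 and 79.9, 75.9, 76.0 and 71.6 TPM in M5, or 74.0 ± 3.65 and 75.8 ± 3.37 (SD, n = 4). WNT10A took a larger share and WNT7A and WNT7B a smaller one in M5_O5. The 3 antagonists gave 26.8, 21.3, 22.7 and 21.2 TPM in M5_O5 and 7.34, 4.07, 3.39 and 3.76 TPM in M5, which do not overlap. Over all 18 WNT ligands in the table, members included, the sums did not overlap, with 104.6 to 112.1 TPM in M5_O5 (108 ± 3.60) and 112.5 to 118.8 TPM in M5 (115 ± 2.75), although the nearest libraries were close. These sums count RNA only and take in no measure of secreted protein.

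**Figure D3:**
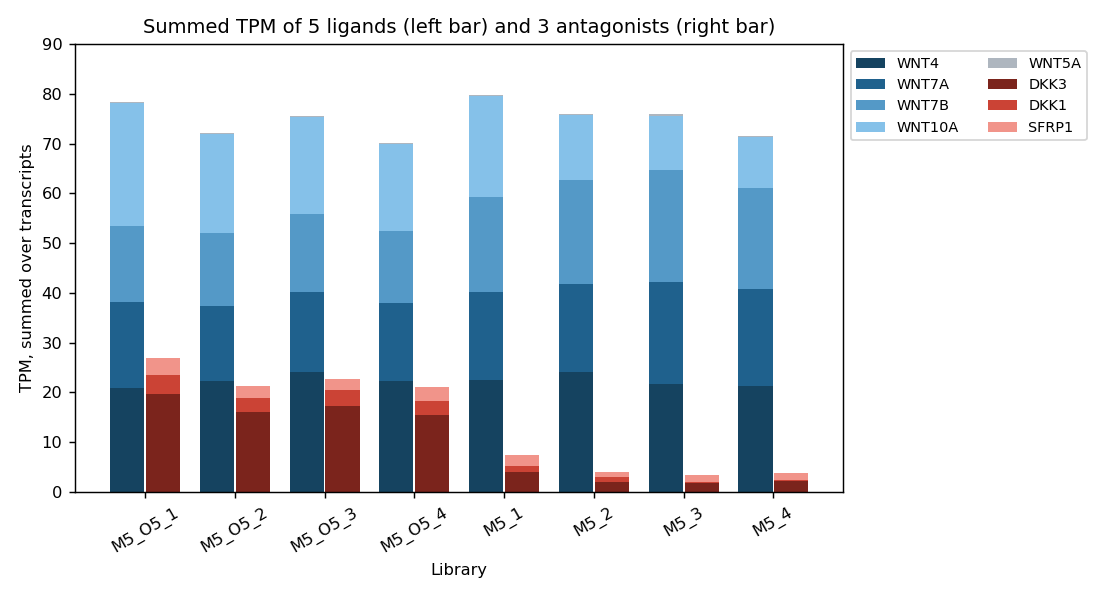
Summed TPM in each library, with the 5 ligands in the left bar and the 3 antagonists in the right bar of each pair. The ligand bars reach 70.1 to 79.9 TPM in every library, and the antagonist bars reach 21.2 to 26.8 TPM in M5_O5 and 3.39 to 7.34 TPM in M5. WNT5A is too low to be seen.

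The table gives reads per transcript. DKK1 and SFRP1 have 1 transcript each. For DKK3, the table splits the gene over 8 transcripts. NM_001018057 held 55.4% of its reads in M5_O5 and 62.4% in M5, and the predicted XM_006718178 held 35.0% and 31.9%. NM_013253 was given 103.4 reads over the M5_O5 libraries and 0 in M5. The division varied between replicates more than the gene did. XM_006718178 had 229.24 reads in M5_O5 replicate 1 and 29.25 in M5_O5 replicate 4, while the gene had 424 and 347. In M5, the reads went wholly to XM_006718178 in replicate 2 and none went to it in replicate 1. No difference in transcript use is therefore read from these values, and the gene total was used.

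**Figure D4:**
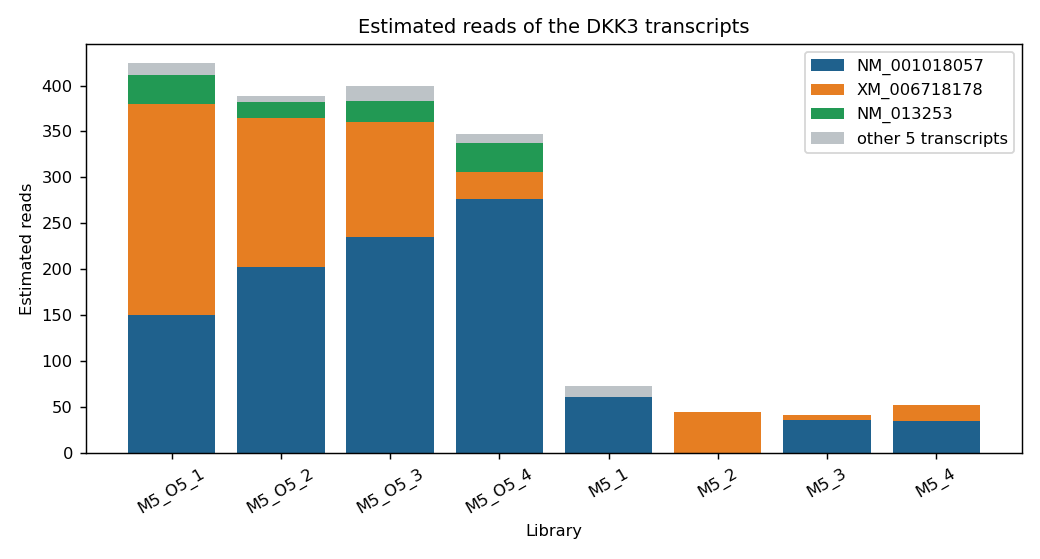
Estimated reads of the DKK3 transcripts in each library, stacked to the total of the gene. The totals lie between 347 and 424 reads in M5_O5 and between 41 and 73 in M5, while the division between NM_001018057 (blue) and XM_006718178 (orange) changes from library to library.

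Among 11968 genes with at least 1 CPM, the pattern nearest to that of DKK3 over the 8 libraries was that of SLCO2A1, a prostaglandin transporter, with a root mean square difference of 0.287 on the log2 scale, followed by PSAT1, an enzyme of serine synthesis (0.293), and EFEMP1, an extracellular matrix protein (0.306). The deviation of DKK3 from its own mean was 1.31 on the same scale. Nearest to WNT4, the member with the highest TPM, were TMEM222 (0.031), ZNF76 (0.033) and SAMD4B (0.042), against a deviation of 0.148 for WNT4 itself. This likeness is a description over 8 libraries of 2 groups.

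The other genes of the pathway were counted from lists drawn up by role. These lists were chosen with earlier results of these data known. Their counts, here and by role below, are therefore descriptions, and no shift of the pathway is read from them. Of 124 listed genes, 116 were in the table and 85 were tested. In M5_O5, 10 were higher and 27 lower at an adjusted p-value under 0.05 (edgeR quasi-likelihood test), which is 11.8% and 31.8% of those tested, against 19.5% and 17.6% of all genes. The 7411 genes tested within the middle range of expression of the pathway genes gave 19.4% and 16.7%. The median log2 fold change was -0.09. Without M5 replicate 1, 11 were higher and 29 lower (12.9% and 34.1%, against 22.9% and 19.9% of all genes). Scaling by library size alone gave 12 higher and 16 lower (14.1% and 18.8%, against 31.0% and 8.1% of all genes).

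Among the other ligands, WNT9A fell by 0.33 on the log2 scale, from 66.1 ± 6.02 CPM in M5 to 52.6 ± 2.84 CPM in M5_O5 (SD, n = 4; adjusted p = 0.00251). WNT3 (9.15 and 6.41 CPM) and WNT2B (14.2 and 10.9 CPM) were also lower in M5_O5, that of WNT3 as the sum of 3 placements that differ in direction. WNT16 was higher there, at 1.94 ± 0.644 against 1.08 ± 0.172 CPM (log2 fold change 0.85, adjusted p = 0.0215), a call that was lost without M5_O5 replicate 1 (0.65), M5_O5 replicate 2 (0.80) or M5 replicate 3 (0.75). WNT5B had 0.98 and 1.12 CPM and did not pass (adjusted p = 0.607), and WNT10B had at most 8 reads and was not tested. Of the remaining secreted antagonists, 13 were listed, 9 were in the table and 1 was tested, IGFBP4, an insulin-like growth factor carrier, with 7.09 ± 0.635 CPM in M5_O5 and 5.79 ± 0.601 CPM in M5 (adjusted p = 0.0673). The R-spondins and Norrin, which strengthen WNT signals, had at most 2 reads in any library or were not in the table.

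Of 3 tested genes for ligand secretion, 2 were higher in M5_O5, where 19.5% of all genes were. WLS, the carrier that brings WNT proteins to the cell surface, had 34.5, 40.0, 35.0 and 37.8 CPM in M5_O5 and 28.9, 25.5, 25.1 and 25.5 CPM in M5. Its groups did not overlap (log2 fold change 0.49 ± 0.073, SE; adjusted p = 0.00018). PORCN, the enzyme that adds the lipid, had 42.4 ± 5.34 and 35.4 ± 3.41 CPM (log2 fold change 0.26, adjusted p = 0.0424), but in 6 of the 8 fits with 1 library left out (all but those without M5_O5 replicate 4 or M5 replicate 2) the call was lost, with log2 fold changes from 0.20 to 0.28.

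Of 17 receptors tested, 4 were higher in M5_O5, or 23.5%, against 19.5% of all genes, and 0 were lower, against 17.6%. With at least 10 counts in every library, 3 of 16 were higher. FZD2, a Frizzled receptor, had 4.83 ± 0.553 and 2.93 ± 0.186 CPM (log2 fold change 0.72, adjusted p = 0.00113), and FZD4 had 8.24 ± 0.124 and 6.28 ± 0.633 CPM. LGR4, a receptor for R-spondins, had 52.3 ± 7.31 and 35.5 ± 8.06 CPM (log2 fold change 0.56, adjusted p = 0.00376), with M5 replicate 1 at 47.4 CPM among the M5_O5 libraries. ROR1, a receptor for WNT5A, which was named after its values were seen, had 1.07 and 0.42 CPM, and with 3 to 9 reads in M5 it passed the filter through the group in which it was high. LRP5, LRP6 and FZD6 differed by at most 0.015 on the log2 scale, with adjusted p-values of 0.917 to 0.981. Among the 5 brakes on receptors, KREMEN2, a partner of DKK1 at LRP receptors, had 1.67 ± 0.518 and 0.61 ± 0.266 CPM (log2 fold change 1.47, adjusted p = 0.00319). It had 4 to 12 reads in M5 and passed the filter on low counts through the group in which it was high, so it was not tested with at least 10 counts in every library. ZNRF3, which removes Frizzled from the surface, had 4.48 ± 0.274 and 2.96 ± 0.123 CPM (0.60, adjusted p = 0.0026). KREMEN1 was lower (-0.19, adjusted p = 0.014), a call that was lost with library size scaling and on both TPM scales.

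Of 19 tested genes of the DVL proteins and the destruction complex, 8 were lower in M5_O5 (42.1%, against 17.6% of all genes) and 0 higher (against 19.5%). After scaling by library size alone 4 were lower, where 8.1% of all genes were. DVL3, which carries the signal from Frizzled, fell by 0.45 on the log2 scale, from 187 to 137 CPM (adjusted p = 5.5e-05). BTRC, which marks β-catenin for degradation, fell by 0.41 and CSNK1D, a casein kinase, by 0.37. β-catenin itself, CTNNB1, had 324 ± 12.4 and 361 ± 27.6 CPM and did not pass (adjusted p = 0.0577), but it did with DESeq2 (log2 fold change -0.17, adjusted p = 0.0342) and without M5 replicate 1, its lowest M5 library (-0.21, adjusted p = 0.00287). GSK3B did not pass (adjusted p = 0.243). Of 13 nuclear factors, 3 were lower, or 23.1%, against 17.6% of all genes, and 0 higher, against 19.5%. TCF7L2, a partner of β-catenin on DNA, had 15.4 ± 0.879 and 21.7 ± 0.552 CPM (log2 fold change -0.49, adjusted p = 0.000168), and the corepressor TLE4 fell by 0.505. BCL9L, a coactivator, passed only narrowly (-0.16, adjusted p = 0.0464). TCF7L1 did not pass (adjusted p = 0.729), and LEF1 had no read in any library. The median log2 fold change of the nuclear factors, -0.08, became 0.04 with library size scaling. That scaling moved the median of all genes as well, from 0.01 to 0.13.

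Genes known as targets of the pathway went in both directions in M5_O5. The list held 24 genes. NKD1, NKD2, SP5, LGR5, NOTUM, TNFRSF19, LEF1 and ASCL2 had at most 12 reads in any library and were not tested, so the counts leave them out. Of 16 tested, 2 were higher (12.5%, against 19.5% of all genes) and 7 lower (43.8%, against 17.6%). Scaling by library size alone gave 2 higher and 3 lower, where 31.0% and 8.1% of all genes were. MYC, a growth regulator, had 124, 112, 122 and 105 CPM in M5_O5 and 76.4, 92.3, 81.5 and 83.3 CPM in M5 (log2 fold change 0.47 ± 0.07, SE; adjusted p = 0.000156). SOX9, a factor of hair follicle progenitors, fell by 0.81, from 56.6 ± 3.54 to 32.3 ± 1.83 CPM (adjusted p = 2e-06), the largest drop among the pathway genes tested. JUN, an AP-1 factor, fell by 0.40. BAMBI, a decoy receptor of the TGF-β family (-0.72, adjusted p = 0.0281), CCND1, a G1 cyclin (-0.22, adjusted p = 0.0354), and CD44, an adhesion receptor (-0.18, adjusted p = 0.0416), passed, but their calls were lost in 6, 5 and 6 of the 8 fits with 1 library left out, as was that of BCL9L in 6. All 4 calls were also lost on both TPM scales and with library size scaling, where the log2 fold changes were -0.60 for BAMBI, -0.10 for CCND1, -0.07 for CD44 and -0.05 for BCL9L. In the planar polarity branch, which signals without β-catenin, 5 of 10 tested genes were lower, against 17.6% of all genes. In this branch 0 were higher, against 19.5%. Among those lower were DAAM1 (-0.40), the small GTPase RAC1 (-0.34) and the cadherin CELSR2 (-0.34). On both TPM scales 3 of the 10 were lower, where 6.1% and 6.2% of all genes were lower. DAAM1 lost its call there (-0.26 and -0.27, adjusted p = 0.0533 and 0.0521, limma).

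**Figure D5:**
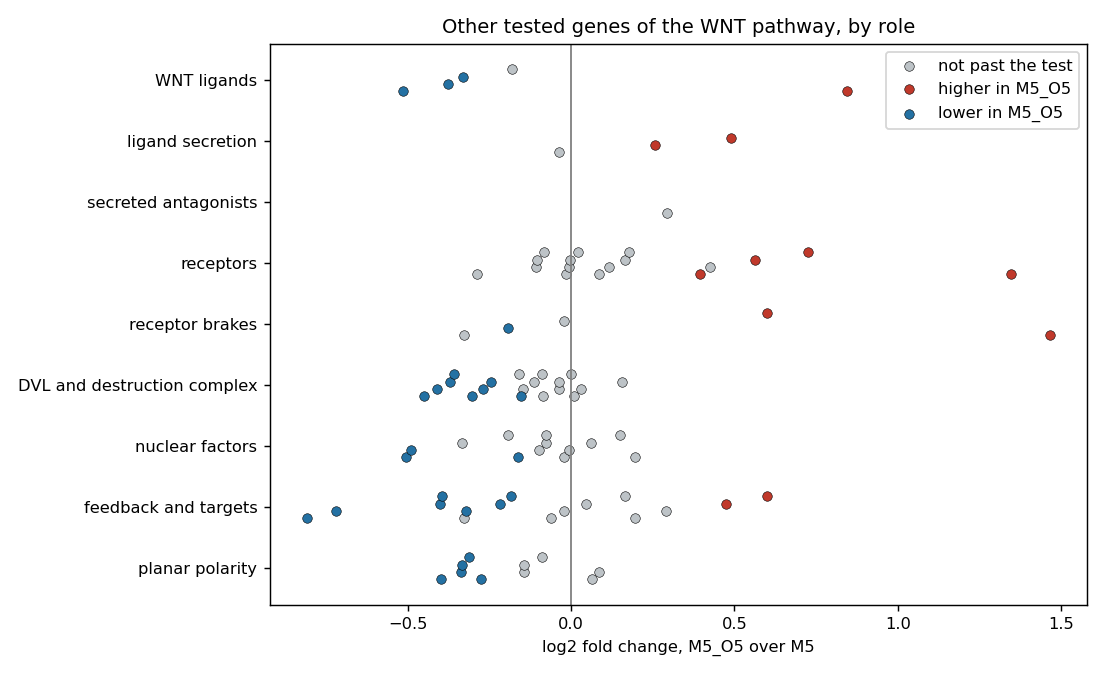
Log2 fold change of M5_O5 over M5 for the 85 other pathway genes tested, in rows by role, with red for genes higher in M5_O5, blue for genes lower and grey for those not past an adjusted p-value of 0.05. ZNRF3 appears both as a receptor brake and as a target. Receptors include 4 higher and 0 lower genes, the destruction complex row 0 higher and 8 lower. Of all genes tested, 19.5% were higher and 17.6% lower.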

How the data were processed

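RNA of HaCaT cells was sequenced in 8 libraries, grouped by title. The study's methods state that filtered reads were mapped with HISAT2 and counted with StringTie, while the submitters' processing notes name HISAT2 2.1.0, Bowtie2 2.2.5 and RSEM 1.2.8 and a mouse build, although the identifiers are human. The genome build is therefore uncertain. The authors deposited an estimated count per transcript, which was not normalized, with TPM, which scales each library to a common sum, and FPKM, which was not used. The authors' group means were not used either. Estimated counts, fractional in 53.8% of values, were summed over the 86639 transcript rows to 17131 genes, then rounded. RefSeq gave the symbols and matched 17072 identifiers, and the other 59 held at most 0.0201% of a library. Further placements of a transcript, 3885 rows, were summed in, and none belonged to a member.

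Genes were filtered with filterByExpr, scaled by TMM and compared with edgeR's quasi-likelihood test (edgeR 4.0.16, R 4.3.3, two-sided) with Benjamini-Hochberg adjustment over 12434 genes. The biological coefficient of variation was 7.42%. Intervals of 95% came from the same fit. The scripts were tested on simulated data. Replicates differed by more than counting noise, and all were counted. That difference cannot show whether they came from separate cultures. These intervals take in the spread between libraries of a group, whereas limits for a count of 0 cover counting error only.

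The members and lists were chosen with earlier results of these data known. Named beside the members were, per pathway list, up to 3 genes a direction that passed the threshold with the highest fold change and a mean of at least 1 CPM, a fixed set of core pathway genes, PBK, and the 3 genes nearest in pattern to DKK3 and WNT4. Alternatives were DESeq2 1.42.0 (the tool of the study's methods), median-of-ratios factors, library size alone, no filter, at least 10 counts in every library, limma 3.58.1 on log2(TPM + 1) and log2(TPM + 0.1), a replicate block, 1 placement per transcript (added after the data were seen for all but the members), and each library left out. Sequences came from RefSeq and GENCODE 29.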

Additional observations from a re-analysis of the deposited data

Results flagged for a closer look

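In 86 groups of 4 libraries, 7 had 1 library far from the other 3, where chance gives about 4.3, and 6 of the 7 were M5 replicate 1. In that library WNT9A had 57.1 CPM (68.4 to 69.7 in the other M5 libraries), WLS 28.9 (25.1 to 25.5), LGR4 47.4 (30.6 to 33.0), SOX9 51.3 (57.8 to 59.0), FZD6 142.6 (116.6 to 118.9) and CTNNB1 320.2 (372.2 to 377.8). WNT3 had 5.64 CPM in M5_O5 replicate 1 and 6.58 to 6.72 in the other M5_O5 libraries. Each member's groups were checked as well, and none was among the 7.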

How the results depend on the processing

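No member changed sign under any alternative. Scaling by library size alone called 3858 genes higher and 1008 lower, with 16 pathway genes lower. On log2(TPM + 1), limma called 761 genes lower, 16 of the pathway, and the log2 fold change was 1.39 for DKK1, -0.001 for WNT4, -0.12 for WNT5A, -0.225 for WNT7A and -0.43 for WNT7B. On log2(TPM + 0.1) it called 768 lower, 16 of the pathway, with -0.001 for WNT4, -0.38 for WNT5A and -0.24 for WNT7A. These scales moved the median of all genes to between 0.116 and 0.135. With at least 10 counts in every library, DKK1 was not tested. DESeq2 called 2127 higher and 2355 lower, 9 and 30 of the pathway.

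With 1 library left out, 1902 to 2872 genes were higher and 1676 to 2504 lower, with 8 to 11 and 22 to 29 of the pathway. The log2 fold changes ranged from 1.86 to 2.60 for DKK1, 2.59 to 2.94 for DKK3, 0.65 to 0.875 for SFRP1, 0.38 to 0.67 for WNT10A, -0.21 to -0.075 for WNT4, -0.90 to -0.54 for WNT5A, -0.47 to -0.34 for WNT7A and -0.67 to -0.54 for WNT7B.

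Whether replicate numbers pair the libraries cannot be settled from correlations over so few libraries. Same-numbered libraries correlated at 0.278, 0.175, 0.031 and -0.006. M5_O5 replicate 1 and M5 replicate 1 correlated best with each other, but not every library correlated best with its own number. The replicate block gave 2703 genes higher and 2552 lower, 10 and 30 of the pathway, and log2 fold changes of 2.21 for DKK1 and 2.70 for DKK3, and CTNNB1 passed with it (-0.155, adjusted p = 0.0169).

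Of 576 comparisons of a named pathway gene with an alternative, 518 kept their side of the threshold, 55 lost it and 3 gained it; the cause was not tested. Depth limits AXIN2, WNT5A and the M5 values of DKK1, which rest on few reads.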

Other observations

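WNT3 is listed at 3 placements of 1 transcript. Of these, 2 carry identical values in every library, each summing to 151.38 reads over M5_O5 and 228.4 over M5, while the third sums to 135.24 and 97.21. The placements thus differ in direction. With the first listed placement alone the log2 fold change was -0.77 (adjusted p = 0.0315, edgeR quasi-likelihood test).

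Reads of WNT5A were also divided unevenly. NM_003392 held 46.9% of them in M5_O5 and 68.3% in M5, over totals of 11 to 26 reads per library.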
